A study of Homo sapiens with 6 samples.

Results

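Cytoplasmic dynein-1 is the motor that carries cargo along microtubules towards their minus ends, and this section describes the transcripts of its subunits in cells treated with a small molecule that blocks poly(ADP-ribose) glycohydrolase (PARG). The genes were taken by name as the subunits of the complex: DYNC1H1, DYNC1I1, DYNC1I2, DYNC1LI1, DYNC1LI2, DYNLL1, DYNLL2, DYNLRB1, DYNLT1 and DYNLT3. These are 10 of the 60708 gene rows counted, and all 10 passed the filter on low counts. The set was chosen by the values of the comparison of inhibitor with solvent, in which DYNC1I1 had one of the most negative fold changes. Those values are given for the subunits as a description, with no test.

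Dynein-1 is built around a pair of heavy chains, which hold the ATP-driven motor and the microtubule-binding stalk. Intermediate chains and light intermediate chains sit on the tail of the heavy chain, and the LC8, roadblock and Tctex light chains bind to the intermediate chains as dimers. The motor works with the dynactin complex and an activating adaptor, moves organelles and endosomes inward, and in dividing cells acts at kinetochores, spindle poles and the cell cortex. The set taken here holds 2 genes each for the intermediate, light intermediate, LC8 and Tctex chains. DYNC1I1 is best known as the intermediate chain of neurons, whereas DYNC1I2 is made in most cell types.

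The cells were U2OS, an established human osteosarcoma line, wild type as described by the submitters and grown in DMEM with fetal bovine serum. Control cells (DMSO, 3 libraries) received the solvent, and treated cells (PARGi, 3 libraries) received the PARG inhibitor PDD00017273 at 25 µM. PARG is the enzyme that takes poly(ADP-ribose) chains apart. Both groups were kept under these conditions for 4 days, and strand-specific libraries were made from total RNA. The submitters call the libraries biological triplicates of a single line, but no label names separate cultures or days, so a p-value here measures only the spread between these libraries.

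The sequences of the intermediate chain genes are shown first, because the results turn on the difference between them and a read has to be told apart by its letters. Within the coding sequences of the principal GENCODE 29 transcripts, DYNC1I1 (1938 bases) and DYNC1I2 (1917 bases) were identical at 71.5% of 1902 aligned bases. The longest run they share is 23 bases. It is printed in capitals below, within 63 bases of each coding sequence, which are coding bases 299 to 361 of DYNC1I1 and 269 to 331 of DYNC1I2.
DYNC1I1: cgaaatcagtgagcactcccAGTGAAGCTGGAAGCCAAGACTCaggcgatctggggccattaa
DYNC1I2: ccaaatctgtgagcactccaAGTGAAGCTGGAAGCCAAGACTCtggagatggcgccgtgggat
No stretch of 50 bases of the principal DYNC1I1 transcript (2950 bases) occurred in the transcripts of any other gene of GENCODE 29. Of the 50-base words of the principal DYNC1I2 transcript, 32.6% also occurred in its pseudogene DYNC1I2P1, which itself had between 46 and 71 counts in a library. An error-free read of 50 bases from the principal DYNC1I1 transcript therefore exactly matches no transcript of another annotated gene. Exonic sequence of DYNC1I1 outside that transcript, and inexact matches, were not searched.

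The promoters of the intermediate chain genes differ in composition, and they are shown because only DYNC1I1 differed strongly between the groups. The 250 bases before the RefSeq start (GRCh38.p14) lie at chr7:95772304-95772553 on the plus strand for DYNC1I1. For DYNC1I2, which has 2 RefSeq starts, those of the first start lie at chr2:171687219-171687468 on the plus strand. Capitals mark the GC box GGGCGG.
DYNC1I1: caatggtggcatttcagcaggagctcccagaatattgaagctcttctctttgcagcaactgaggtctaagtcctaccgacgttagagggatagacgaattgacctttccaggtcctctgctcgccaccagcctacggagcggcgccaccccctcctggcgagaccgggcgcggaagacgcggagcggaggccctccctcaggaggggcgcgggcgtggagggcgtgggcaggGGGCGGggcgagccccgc
DYNC1I2: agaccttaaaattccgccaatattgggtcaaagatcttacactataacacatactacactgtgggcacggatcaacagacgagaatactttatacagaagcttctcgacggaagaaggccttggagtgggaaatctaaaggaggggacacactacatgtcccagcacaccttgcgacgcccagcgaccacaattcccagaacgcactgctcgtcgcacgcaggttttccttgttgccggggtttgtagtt
The DYNC1I1 sequence had a GC content of 65.6% and 21 CpG dinucleotides, against 49.2% and 13 for DYNC1I2. The median over 35116 RefSeq promoter windows of that length was 11 CpG dinucleotides. On both strands the DYNC1I1 window held 1 GC box (GGGCGG) and no CCAAT box (CCAAT), TATA box (TATAAA), E-box (CACGTG) or cAMP response element (TGACGTCA). The DYNC1I2 window shown held CCAAT 2 times, on opposite strands in adjoining bases, and TATAAA 1 time on the minus strand, but no GC box. The window of the other DYNC1I2 start held 1 GC box and none of the other motifs, with 52.0% GC and 12 CpG dinucleotides. GC boxes were also found before every start of DYNC1H1, DYNC1LI1, DYNC1LI2, DYNLL1, DYNLT1 and DYNLT3, and before 1 of 2 DYNLRB1 starts. Windows of these subunits held from 9 to 40 CpG dinucleotides. Of all windows, 42.6% held a GC box, 32.0% CCAAT, 10.7% TATAAA, 6.34% the E-box and 1.65% the cAMP response element. RefSeq windows were found for 9 of the 10 subunit genes, and DYNLL2 had none.

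Library totals ran from 60286931 to 80605145 counts, and 20409 genes were tested between the groups with edgeR's quasi-likelihood test. At a Benjamini-Hochberg adjusted p under 0.05, 24.3% of them were called, 13.2% as higher and 11.0% as lower in PARGi. That balance depends on the scaling: 2700 genes were higher and 2251 lower with TMM scaling, against 2003 higher and 2944 lower with upper-quartile scaling. All 3 libraries of a group lay beyond all 3 of the other for 38.0% of the tested genes. The median log2 fold change was -0.0070. Levels are given as CPM, counts relative to the library total after trimmed-mean (TMM) scaling. Osteoblast-lineage and mesenchymal markers (RUNX2, COL1A1, COL1A2, SPARC, VIM, ALPL and SP7) summed to between 8318 and 8903 CPM in DMSO and between 8427 and 8469 CPM in PARGi, with SP7 near 0. Of the 6 tested, 1 was called higher and 3 lower, the lower ones being COL1A2 (13.0 to 7.41 CPM, log2 fold change -0.80, edgeR adjusted p = 1.6e-08), RUNX2 (-0.27, 4.96e-08) and SPARC (-0.083, 0.00653). COL1A1, VIM and SPARC make up nearly all of the sum, so it does not show the change of COL1A2. The part of these markers in the results below was not tested. Epithelial markers summed to at most 4.52 CPM, haematopoietic ones to at most 1.34 CPM and endothelial ones to at most 0.618 CPM in any library.

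DYNC1I1 (ENSG00000158560.14) spans bases 95772506 to 96110322 of chromosome 7 on its plus strand (GENCODE 29, GRCh38) and encodes intermediate chain 1. Its counts were 615, 677 and 679 in DMSO replicates 1, 2 and 3, and 210, 282 and 331 in PARGi replicates 1, 2 and 3. Scaled to library size, the level was 9.69, 10.6 and 9.12 CPM in DMSO and 3.50, 3.81 and 4.12 CPM in PARGi. The 3 PARGi libraries all lay well below the 3 DMSO libraries, and the lowest DMSO value was 2.22 times the highest PARGi value. The group means were 9.81 ± 0.761 and 3.81 ± 0.307 CPM (SD, n = 3 each). The fitted log2 fold change came to -1.35 (SE 0.078), which is a PARGi level of 0.391 times the DMSO level. Of all tested genes, 36 had a more negative log2 fold change, and 3 of these were among the 14878 tested genes whose mean reached 1 CPM. Counting error alone is 3.84% to 6.90% of the value in a single library, so depth does not limit this difference. In RNA from whole cultures, fewer cells that make a transcript and less of it per cell cannot be told apart.

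DYNC1I2 (ENSG00000077380.16), on the plus strand of chromosome 2 from 171687409 to 171748420, encodes intermediate chain 2, which takes the same place in the complex. It was at 159, 156 and 155 CPM in DMSO replicates 1 to 3 and at 161, 162 and 159 CPM in PARGi replicates 1 to 3. The PARGi values were all slightly above the DMSO values, the lowest PARGi value being 1.002 times the highest DMSO value. Its log2 fold change came to 0.035 (SE 0.025). The paralogue thus lay within a few percent of its control level in the libraries where DYNC1I1 was lower.

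To compare the 2 genes with each other, counts were divided by the length of the principal transcript. The ratio of DYNC1I2 to DYNC1I1 was then 18.2 ± 1.37 in the DMSO libraries and 48.0 ± 4.05 in the PARGi libraries (SD over 3 libraries each). DYNC1I1 made up 5.10%, 5.67% and 4.93% of the summed intermediate chain level in DMSO replicates 1, 2 and 3. In PARGi replicates 1, 2 and 3 its share was 1.89%, 2.03% and 2.23%. The groups did not overlap, and the mean share differed by -3.18 percentage points. Without division by length the difference was -3.57, and with the length of all annotated exons, an alternative added after seeing the data, it was -3.66. The summed level of both genes was 63.6 ± 0.808 CPM per kilobase in DMSO and 63.0 ± 0.556 in PARGi, with overlapping ranges of 62.8 to 64.4 and 62.6 to 63.7. With the length of all annotated exons the sum was 35.6 ± 0.458 in DMSO and 35.1 ± 0.306 in PARGi, and the ranges overlapped there too. Intermediate chain transcripts in these cells were thus nearly all DYNC1I2 in either group. The mean of their sum moved by less than the range of the DMSO libraries, though with all exons by slightly more than their SD.

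**Figure D1:**
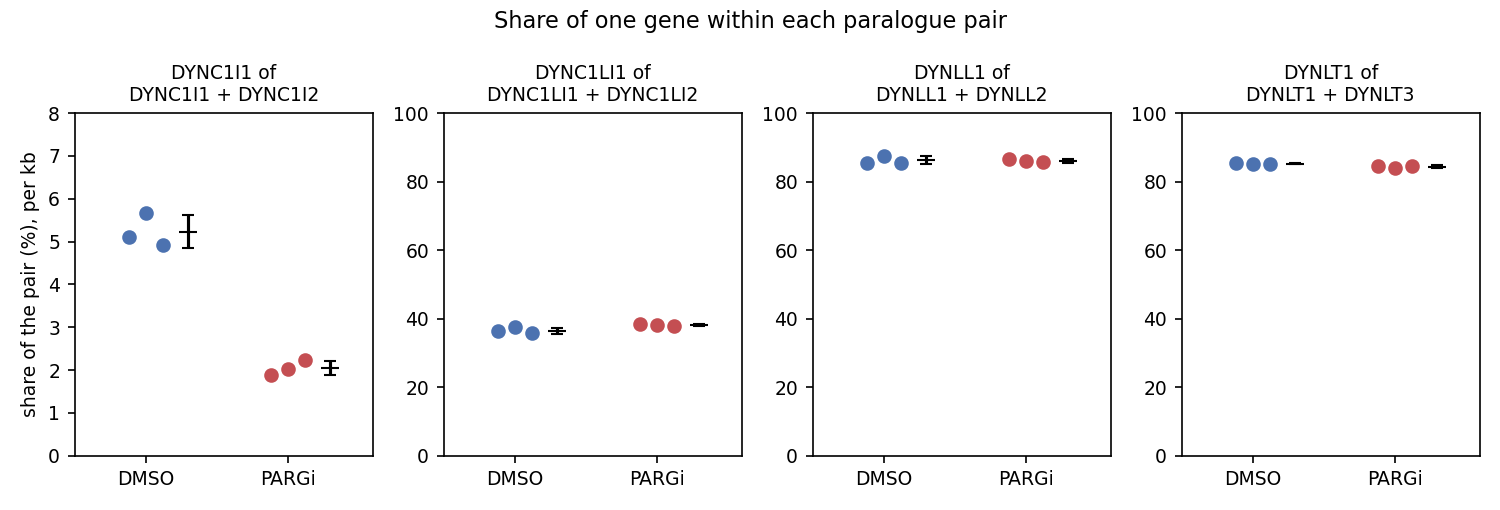
Share of 1 gene within each pair of dynein-1 paralogues, in percent of the summed level per kilobase, for 3 DMSO (blue) and 3 PARGi (red) libraries, with mean and SD beside them. The left panel has an axis up to 8% and the others up to 100%. DYNC1I1 lay between 4.93% and 5.67% in DMSO and between 1.89% and 2.23% in PARGi, while the shares in the other pairs differed by less than 2 percentage points.

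DYNC1H1 (ENSG00000197102.14; chromosome 14, 101964510 to 102056443, plus strand) encodes the heavy chain, the motor itself. Its level was 397, 397 and 398 CPM in DMSO and 406, 421 and 407 CPM in PARGi. The groups did not overlap, but the gap was small, at a log2 fold change of 0.050 (SE 0.024). Some 73.4% of tested genes moved further from 0 than DYNC1H1.

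The light intermediate chains link the motor to adaptors and so to cargo. DYNC1LI1 (chromosome 3) was at 72.7, 69.6 and 67.6 CPM in DMSO and at 71.3, 70.2 and 72.8 CPM in PARGi, with a log2 fold change of 0.031 (SE 0.030). The 2 groups overlapped. DYNC1LI2 (chromosome 16), the more abundant of the pair, was at 230, 210 and 219 CPM in DMSO and at 205, 205 and 216 CPM in PARGi. Its groups overlapped as well, at a log2 fold change of -0.073 (SE 0.031), and this was the only other subunit besides DYNC1I1 and DYNLRB1 with a negative value. An antisense gene shares 1790 exonic bases with DYNC1LI2 on the opposite strand and had a mean of 0.296 CPM. Per kilobase, DYNC1LI1 made up 36.5% ± 0.881 of the pair in the DMSO libraries and 38.2% ± 0.383 in the PARGi libraries (SD over 3 libraries each).

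The LC8 light chains DYNLL1 and DYNLL2 are small dimeric hub proteins with many partners outside dynein. DYNLL1 (chromosome 12) was at 199, 201 and 202 CPM in DMSO and at 210, 205 and 203 CPM in PARGi. Its groups did not overlap, yet the nearest values of the groups differed by a factor of 1.001, and the log2 fold change was 0.037 (SE 0.025). DYNLL2 (chromosome 17) was at 281, 240 and 286 CPM in DMSO and at 270, 280 and 285 CPM in PARGi. DMSO replicate 2 stood below the 5 other libraries, the groups overlapped, and the log2 fold change was 0.048 (SE 0.042). Without DMSO replicate 2 the sign of the DYNLL2 value turned, to -0.028.

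DYNLRB1 encodes the roadblock light chain and lies on chromosome 20, from 34516409 to 34540958. It had the fewest counts of the set. The counts were 104, 75 and 90 in DMSO and 86, 98 and 84 in PARGi, or between 1.04 and 1.64 CPM, and the groups overlapped (log2 fold change -0.090, SE 0.17). That value turned positive without DMSO replicate 1 (0.071) and without PARGi replicate 3 (0.042). Counting error reached 11.5% of a library's value, so a change of the size seen for the Tctex chains would not have been resolved. No gene on its strand overlaps it in GENCODE 29, and none of the 50-base words of its principal transcript occurred in the transcripts of another gene. How the authors' annotation draws this locus is not given in the sources used here.

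The Tctex light chains were the 2 subunits with higher values beyond the small shifts above. DYNLT1 (ENSG00000146425.11; chromosome 6, 158636474 to 158644739, minus strand), which binds the intermediate chain and several cargo proteins, was at 73.4, 72.1 and 70.0 CPM in DMSO. In PARGi it was at 84.0, 79.9 and 82.5 CPM, all above the DMSO libraries. The means were 71.8 ± 1.69 and 82.1 ± 2.10 CPM (SD, n = 3 each), with a log2 fold change of 0.19 (SE 0.029). DYNLT3 (ENSG00000165169.11; chromosome X, 37836757 to 37847637, minus strand), its paralogue, was at 38.6, 38.6 and 37.5 CPM in DMSO and at 46.6, 46.7 and 46.0 CPM in PARGi. These groups were separated too, and the lowest PARGi value was 1.19 times the highest DMSO value. DYNLT3 had a log2 fold change of 0.28 (SE 0.032), and 20.1% of all tested genes moved further from 0. Summed per kilobase, the 2 Tctex genes stood at 116 ± 2.58 CPM (DMSO) and 134 ± 2.86 CPM (PARGi), and DYNLT1 kept 85.2% ± 0.136 and 84.4% ± 0.382 of the sum. In this pair both genes were higher, whereas in the intermediate chain pair the scarcer gene was lower and the common one was near its control level.

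**Figure D2:**
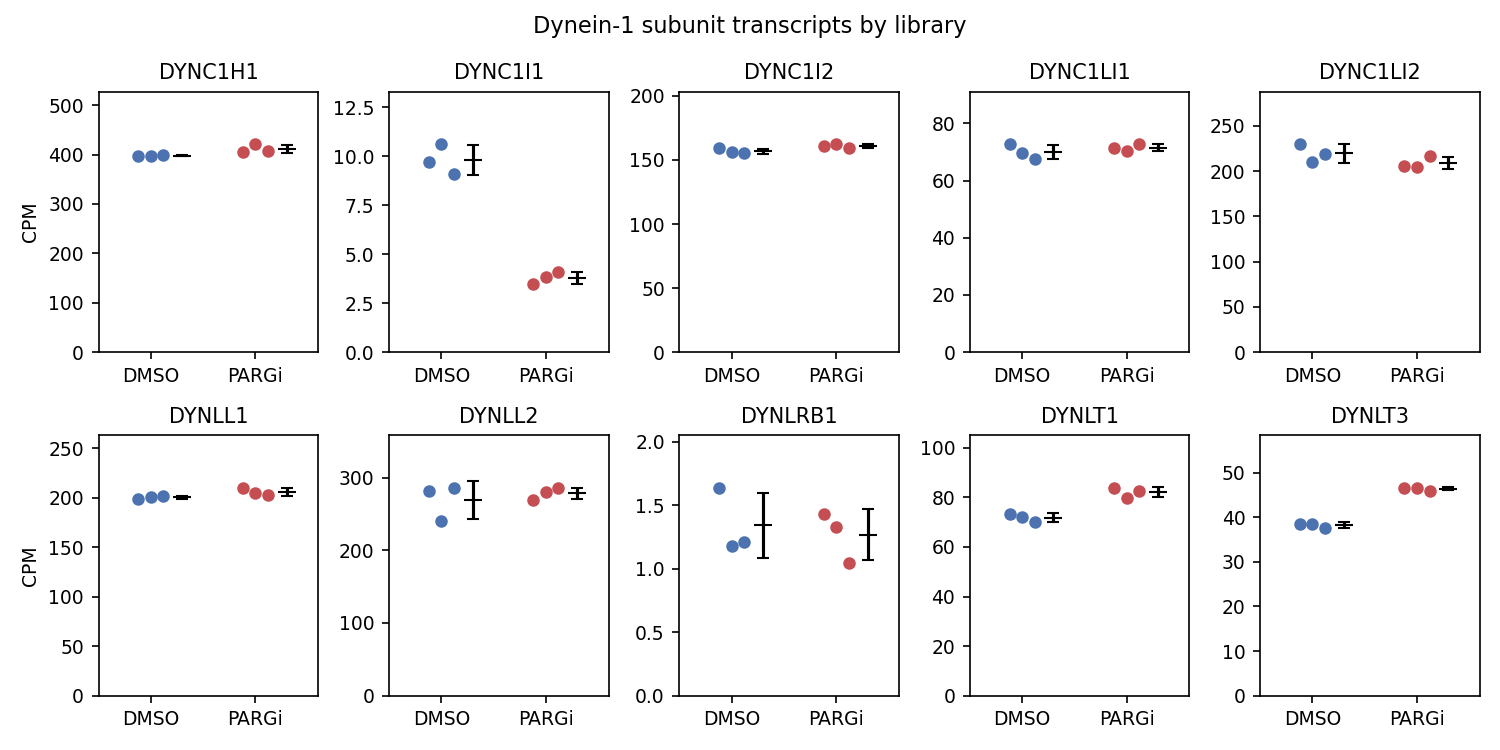
Level of each of the 10 dynein-1 subunit transcripts in CPM, for 3 DMSO (blue) and 3 PARGi (red) libraries, with the mean and SD of each group in black and every axis starting at 0. DYNC1I1 had a mean of 9.81 CPM in DMSO against 3.81 CPM in PARGi, DYNLT1 and DYNLT3 lay higher in PARGi, and the other panels look nearly level.

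Across the set, 3 of the 10 subunits were past the threshold of the test over all genes, DYNLT1 and DYNLT3 as higher and DYNC1I1 as lower. That is beside 24.3% of all tested genes, and since the comparison chose the set, nothing is read from the count. The same 3 subunits were past it under every alternative, with DYNC1LI2 as the 4th under upper-quartile scaling and without DMSO replicate 2. The alternatives refit the comparison that chose the set, so they describe the processing and are no support for these subunits. The share of all tested genes called was 24% with DESeq2, 24.2% with upper-quartile scaling, 12.6% with no filter, 26.4% with at least 10 counts in every library and 22.3% with a replicate block. It was 19.3%, 21.9% and 23.6% without DMSO replicates 1, 2 and 3, and 19.1%, 17.5% and 17.6% without PARGi replicates 1, 2 and 3. Groups did not overlap for 6 subunits, 5 with PARGi above and DYNC1I1 with PARGi below, beside 38.0% of all tested genes (19.8% above, 18.2% below). The median log2 fold change was 0.036 over the 10 subunits and 0.037 over the 9 others than DYNC1I1. Those 9 ranged from -0.090 for DYNLRB1 to 0.28 for DYNLT3. With upper-quartile scaling, which moved the median of all tested genes to -0.031, every subunit value moved down by a similar amount, and no subunit changed sign.

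**Figure D3:**
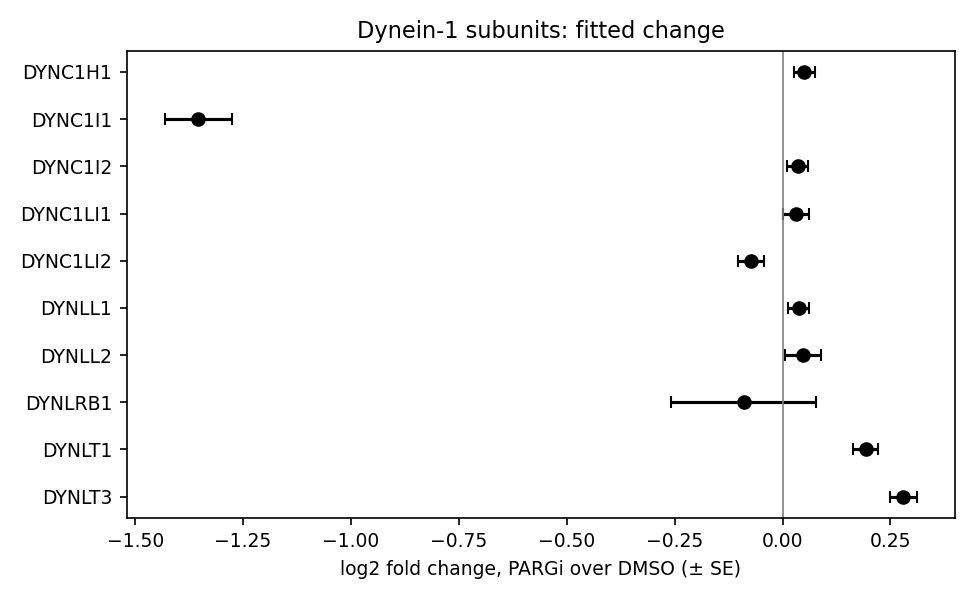
Fitted log2 fold change of each dynein-1 subunit, PARGi over DMSO, with its standard error as horizontal bars (3 libraries per group). DYNC1I1 stands alone at -1.35, DYNLT1 and DYNLT3 lie at 0.19 and 0.28, and the 7 other subunits lie between -0.090 and 0.050.

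Per kilobase of principal transcript, the order of the subunits in DMSO was DYNLL1 (247 CPM per kilobase), DYNLT1 (98.9), DYNC1I2 (60.3), DYNC1LI2 (48.6), DYNLL2 (39.5), DYNC1LI1 (27.9), DYNC1H1 (19.9), DYNLT3 (17.2), DYNC1I1 (3.33) and DYNLRB1 (1.99). Library ranges of neighbours in this order did not overlap. In PARGi the first 6 places were the same. DYNLT3 (20.9) and DYNC1H1 (20.6) had overlapping ranges there, and DYNC1I1 (1.29, from 1.19 to 1.40) was below DYNLRB1 (1.88, from 1.55 to 2.12). The order depends on the length used: over all annotated exons DYNLL2 came second in DMSO at 39.5 CPM per kilobase, while DYNLL1 stayed first at 67.9 and DYNC1I1 and DYNLRB1 last at 2.15 and 0.545. The annotation used for counting is not known, and whether reads at DYNLRB1 were lost in counting was not tested. Its place in the order, and that of DYNC1I1 relative to it, are therefore uncertain.

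The partners of dynein-1 were compared with the same test, as lists of genes taken for their known roles. These lists were chosen with earlier results of these data known, so their counts of calls are given as a description. Dynactin, the cofactor that dynein needs for long movement, had 12 tested genes, of which 1 rose and none fell, beside 24.3% called of all tested genes. The riser was DCTN5, from 61.0 ± 0.853 to 66.6 ± 1.56 CPM (log2 fold change 0.13, edgeR adjusted p = 0.00246), and DCTN1, the large subunit that binds the intermediate chain, had a log2 fold change of -0.021 (edgeR adjusted p = 0.604). The median of the list was 0.014, and -0.0105 with upper-quartile scaling. DCTN5 stayed past the threshold in all 12 alternatives, but the count of the list changed with single libraries. It was 3 without DMSO replicate 1 and 2 without DMSO replicate 2 or PARGi replicate 1. Among the regulators LIS1 (PAFAH1B1), NDE1 and NDEL1, which hold dynein on microtubules and bind to it directly, NDEL1 rose from 36.8 ± 0.662 to 41.0 ± 0.817 CPM (log2 fold change 0.15, edgeR adjusted p = 0.00134). PAFAH1B1 and NDE1 had values of 0.00040 and 0.029 and did not pass (edgeR adjusted p = 0.995 and 0.611).

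Activating adaptors, which join dynein to dynactin and cargo, had 9 called genes of 19 tested, beside 24.3% of all tested genes, with a median log2 fold change of 0.017. They were 5 higher and 4 lower, but 2 higher and 5 lower with upper-quartile scaling, where the median was -0.0074. Without DMSO replicate 1 they were 1 higher and 4 lower, and without PARGi replicate 2 they were 1 higher and 3 lower. TRAK2 (0.13), a mitochondrial adaptor, rose, and TRAK1 (-0.12), its paralogue, fell, with edgeR adjusted p-values of 0.00145 and 0.0024. NUMA1, which anchors dynein at spindle poles and cortex, fell from 394 ± 23.1 to 357 ± 5.23 CPM (-0.14, edgeR adjusted p = 0.00128), and NINL fell by 0.12 on the log2 scale (edgeR adjusted p = 0.00372). CRACR2A (0.15), BICD1 (0.11), RAB11FIP3 (0.11) and SPDL1 (0.072) rose and BICDL1 (-0.15) fell, but each of these 5 calls was lost without PARGi replicate 2, at edgeR adjusted p-values of 0.059, 0.126, 0.171, 0.129 and 0.109. Without DMSO replicate 1, those of CRACR2A (0.0534), BICD1 (0.0547), RAB11FIP3 (0.184) and SPDL1 (0.154) were lost too, and the list had 5 calls. Further single libraries ended the call of CRACR2A (DMSO replicate 2, 0.0546), RAB11FIP3 (DMSO replicate 2, 0.0904, and PARGi replicate 1, 0.0691), BICDL1 (DMSO replicate 3, 0.0536, and PARGi replicate 1, 0.0717) and SPDL1 (DMSO replicate 2, 0.0831, and PARGi replicates 1 and 3, 0.0998 and 0.134). Upper-quartile scaling ended the calls of BICD1 (0.0501), RAB11FIP3 (0.0783) and SPDL1 (0.223), and DESeq2 those of BICDL1 (0.0505) and SPDL1 (0.0624). SPDL1 was also lost with DESeq2's size factors (0.0508), no filter (0.086) and a replicate block (0.0771), and so passed in 2 of 12 alternatives. BICD2, a Golgi and nuclear envelope adaptor, had a value of 0.017 (edgeR adjusted p = 0.734), which turned to -0.0074 with upper-quartile scaling.

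Of 8 genes that bring dynein to kinetochores, 3 rose and 1 fell, beside 24.3% called of all tested genes, with a median log2 fold change of 0.039. ZWILCH, of the RZZ complex, rose by 0.11 (edgeR adjusted p = 0.0049). NDEL1 and SPDL1, counted above, were the other 2 that rose. CENPF fell by 0.074 on the log2 scale (edgeR adjusted p = 0.0326), and that call was lost without DMSO replicate 2 or 3 or PARGi replicate 2 or 3 (0.0663, 0.0757, 0.119 and 0.158) and with a replicate block (0.0647). Dynein-2, the motor of cilia, had 2 of 5 tested genes past the threshold, beside the same 24.3%. DYNC2I1 fell (-0.22, edgeR adjusted p = 0.00072) and DYNC2I2 rose (0.082, edgeR adjusted p = 0.0451). The call of DYNC2I2 was lost without DMSO replicate 1 or 2 or PARGi replicate 1 or 3 (0.239, 0.095, 0.207 and 0.128), with upper-quartile scaling (0.156) and with a replicate block (0.0551). DYNC2H1, the heavy chain of dynein-2, had a value of 0.096 (edgeR adjusted p = 0.0922) and passed without DMSO replicate 2 (0.14, 0.00961).

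Kinesins of the families kinesin-1, kinesin-2 and kinesin-3 move cargo the opposite way, and 9 of 18 tested genes were called, beside 24.3% of all tested genes, with a median log2 fold change of 0.030. They were 5 higher and 4 lower, but 3 higher and 5 lower with upper-quartile scaling and 3 higher and 4 lower without DMSO replicate 2. KIF1A, a kinesin-3 best known from axons, rose from 59.0 ± 1.21 to 78.8 ± 0.887 CPM (0.42, edgeR adjusted p = 9.85e-11). KIF1B (0.16), KIF1C (0.13), KIF3C (0.099) and KIF5C (0.10) rose, and KIF5A (-0.20), KLC4 (-0.13), KIF13A (-0.12) and KLC1 (-0.14) fell, with edgeR adjusted p-values from 0.000172 to 0.0298. KIF5C is outside the rule for names and was added once its value had been seen. Leaving out DMSO replicate 2, PARGi replicate 2 or PARGi replicate 3 ended the call of KIF3C (0.133, 0.0996 and 0.0863), and leaving out DMSO replicate 2 or PARGi replicate 1 or 2 that of KIF5C (0.0947, 0.0711 and 0.151). The call of KLC4 was lost without PARGi replicate 3 (0.0534), and that of KLC1 without DMSO replicate 1 or 3 or PARGi replicate 1 or 2 (0.103, 0.116, 0.151 and 0.0825). Upper-quartile scaling ended the calls of KIF3C (0.0814) and KIF5C (0.104), and DESeq2 those of KIF5C (0.0533) and KLC1 (0.0737). KIF5B, the common kinesin-1 heavy chain, had a value of -0.016 (edgeR adjusted p = 0.678). In the list of neuron-enriched genes, to which DYNC1I1 is close by its known expression, NEFL (0.39) and SNAP25 (0.20) rose and MAP2 (-0.14) fell (edgeR adjusted p = 9.96e-09, 0.00292 and 0.0107). These were 3 of 11 tested, near the 24.3% of all tested genes. The MAP2 call was lost without DMSO replicate 2 (0.0569) or PARGi replicate 1 (0.0772). The median log2 fold change of that list was 0.0267, and over the alternatives it ran from -0.0611 (at least 10 counts in every library) to 0.0553 (without DMSO replicate 2). The summed level ran from 112 to 118 CPM in DMSO and from 121 to 125 CPM in PARGi. MAP2, NEFL and SNAP25 make up most of that sum, and NEFL went from 33.4 ± 0.659 to 43.7 ± 1.32 CPM. The sum therefore does not show a shift of the list as a whole. RBFOX3, STMN2, ELAVL4 and DCX had group means of at most 0.586 CPM, ELAVL3 and NEFM were too scarce to test, and INA was at 0 in every library.

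**Figure D4:**
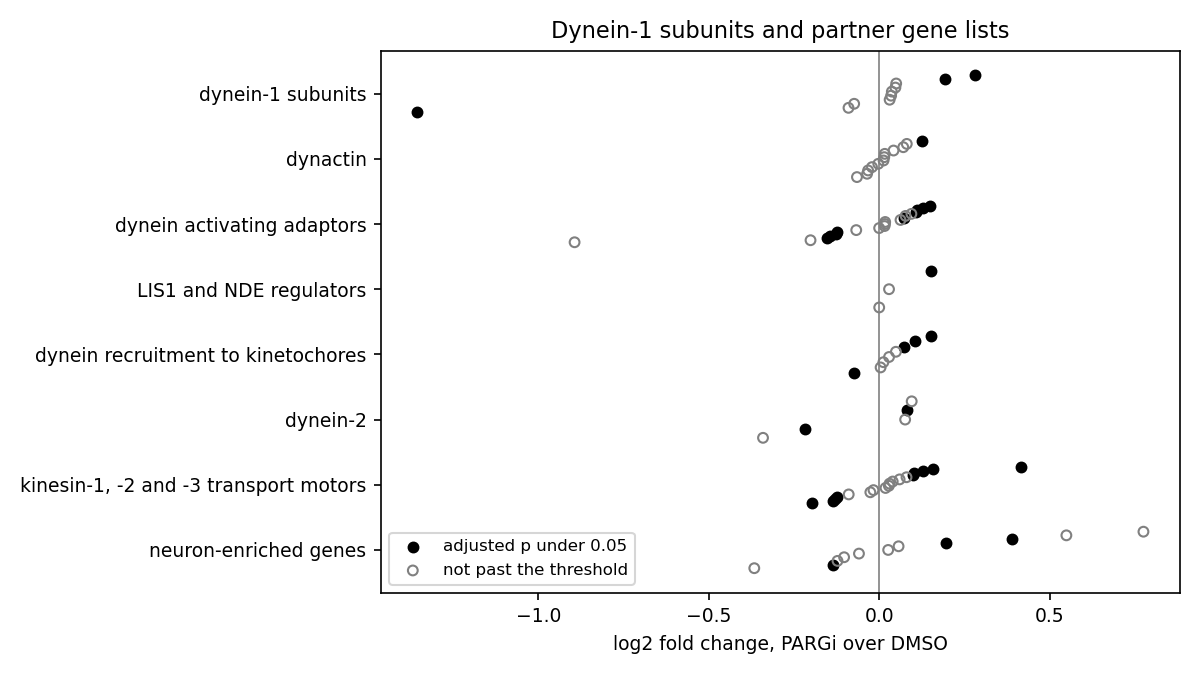
Log2 fold change, PARGi over DMSO, of every tested gene in the dynein-1 set and the partner lists, with 1 point per gene, filled where the edgeR adjusted p is under 0.05. The dynein-1 point at -1.35 is DYNC1I1, and the called partner genes lie between -0.22 and 0.42.

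The position of DYNC1I1 was not used to choose it, so its neighbours on chromosome 7 were tested. Within 1 Mb on each side GENCODE 29 lists 36 other genes. Of these, 6 had enough counts for a test and 1 was called, beside 24.3% of all tested genes. Nothing is read from that count. SLC25A13 lies on the minus strand and encodes a mitochondrial aspartate-glutamate carrier. Its nearer edge, where transcription ends, is 9.90 kilobases after DYNC1I1. SLC25A13 averaged 93.4 ± 3.12 CPM in the DMSO libraries and 90.0 ± 2.06 CPM in the PARGi libraries (SD over 3 libraries each). The interval of its log2 fold change of -0.051 ran from -0.11 to 0.0090 at 95% confidence (edgeR adjusted p = 0.221). SEM1, PON2, PPP1R9A and PON3 had values of -0.026, -0.010, -0.019 and 0.033 (edgeR adjusted p from 0.582 to 0.953). PDK4 encodes a pyruvate dehydrogenase kinase, also on the minus strand, and its nearer edge, where transcription begins, is 176 kilobases before DYNC1I1. PDK4 fell by 0.74 on the log2 scale, from 1.13 ± 0.264 to 0.682 ± 0.104 CPM (edgeR adjusted p = 0.0085). Its call was lost without DMSO replicate 1 (-0.54, adjusted p = 0.088) and without PARGi replicate 3 (-0.66, adjusted p = 0.0518). Exons of DYNC1I1 are known to hold enhancers of DLX5 and DLX6, named here for that reason after their values were seen. DLX5 and DLX6 had at most 5 and 2 counts in any library and were not tested.

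**Figure D5:**
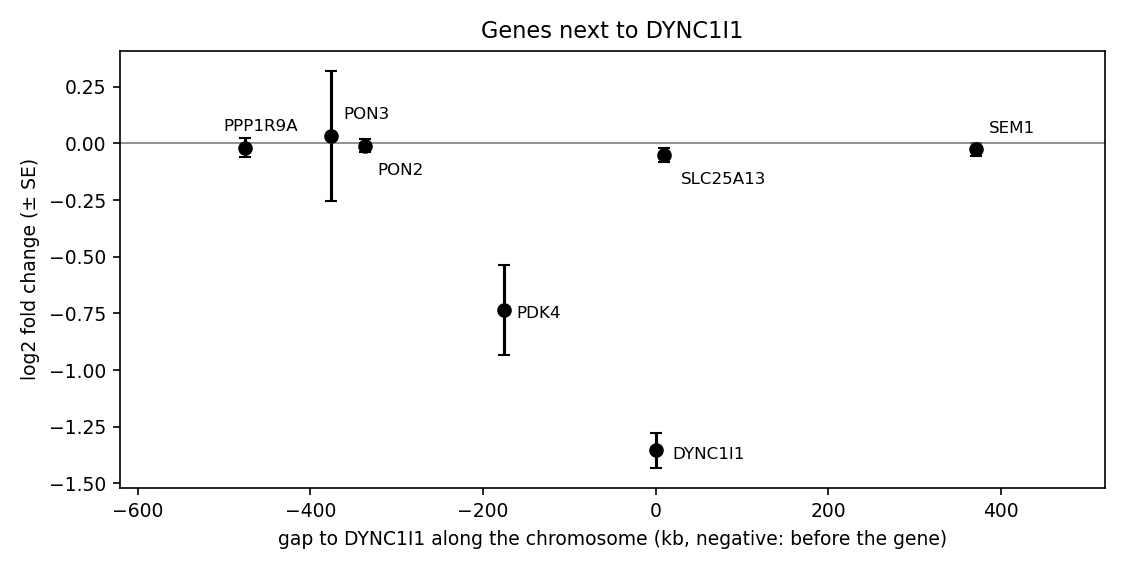
Log2 fold change with its standard error for DYNC1I1 and the 6 tested genes within 1 Mb, against the gap to DYNC1I1 in kilobases along chromosome 7. The nearest tested gene, SLC25A13, lies at -0.051, PDK4 at -0.74 and DYNC1I1 at -1.35.

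Genes like DYNC1I1 over the 6 libraries were found by the root mean square difference of centred log2 CPM among the 14878 tested genes whose mean reached 1 CPM. The long non-coding RNA gene ENSG00000284652 was at 0.112. BMF, which encodes a BH3-only protein of apoptosis, was at 0.140, FER1L6 at 0.157 and RNF43, a ubiquitin ligase gene of Wnt signalling, at 0.160. The log2 fold changes of these 4 genes ran from -1.24 for ENSG00000284652 to -1.13 for RNF43, against -1.35 for DYNC1I1. The measure includes the group difference, so it describes likeness only.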

How the data were processed

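RNA from 6 libraries (3 DMSO, 3 PARGi) was sequenced and counted per gene by the authors. The deposited values are raw counts, whole numbers with 1 value per gene and library and no normalisation. Per the submitters' processing notes, cutadapt 1.18, STAR 2.7.3a and SAMtools 1.9 were used on hg38, and the strand setting, annotation release and treatment of shared reads are not given in the sources used here. Groups and replicate numbers came from the sample titles. Of 60708 gene identifiers, all named a gene, and 58440 were found in GENCODE 29 (GRCh38), which gave positions and lengths. A gene that shares exons or near-identical copies with another may have lost or gained reads.

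Counts were tested with edgeR 4.0.16 in R 4.3.3 (filterByExpr, TMM scaling, glmQLFit, two-sided glmQLFTest on treatment, all 6 libraries), with Benjamini-Hochberg adjustment over 20409 genes and a threshold of 0.05. Standard errors (SE) were derived from the fold change and its F statistic. Counts were also simulated for this comparison over 20409 genes, with 67, 67 and 66 genes changed 1.2-fold, 1.5-fold and 2-fold. The changed genes all had a mean above 1 CPM. Of them, 80.6%, 91% and 100% were called in the right direction, and 8 unchanged genes were called. Far more genes were called in the data than were changed here, and the rates do not cover scarcer genes. Every gene was drawn with the variability of the fitted trend at its level. The rates therefore do not cover genes more variable than that trend either, and may be too favourable for these data. Levels between genes were divided by the length of the longest APPRIS principal transcript. Coding sequences were aligned with Biopython 1.88, and figures drawn with matplotlib 3.10.9. Alternatives were DESeq2 1.42.0, its size factors in edgeR, upper-quartile scaling, no filter, at least 10 counts in every library, a replicate block, each library left out, and other lengths.

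The members and lists were chosen with earlier results of these data known. Named genes were the 10 subunits, PAFAH1B1, NDE1, NDEL1, DCTN1, BICD2, KIF5B and DYNC2H1, the tested genes within 1 Mb of DYNC1I1, up to 4 higher and 4 lower called genes per list by smallest p, and the 5 genes nearest to DYNC1I1 in pattern, of which 1 is not reported here. No 2 libraries agreed within sampling noise.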

Additional observations from a re-analysis of the deposited data

How the results depend on the processing

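The log2 fold change of DYNC1I1 stayed negative in all 12 alternatives, between -1.42 (without PARGi replicate 3) and -1.29 (without DMSO replicate 2). The difference in its share of the intermediate chain level was -3.57 points from raw counts and -3.66 points with the length of all annotated exons, and -3.33 to -2.97 with a library left out. DYNLT1 and DYNLT3 stayed past the threshold in all 12, and DYNC1LI2 passed with upper-quartile scaling (-0.098) and without DMSO replicate 2 (-0.10). Since the same comparison chose the set, these outcomes describe the processing only.

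The number of called genes over the whole table was 3834 with DESeq2, 4947 with upper-quartile scaling (2003 higher, 2944 lower) and 3607 to 4848 with a library left out. With upper-quartile scaling dynactin had 2 calls and dynein-2 had 1. With a library left out, calls ran from 1 to 3 for dynactin, 4 to 9 for adaptors, 2 to 3 for kinetochore genes, 1 to 2 for dynein-2 and 0 to 1 near DYNC1I1. A replicate block gave 2 calls for kinetochore genes, 1 for dynein-2 and 4553 over all genes. Deviations of same-numbered libraries correlated across genes at -0.00585, 0.0157 and -0.00784, and not every library correlated best with its own number. Pairs of libraries with different numbers ran from -0.0286 to 0.0354. No pairing by number was seen, but values this near 0 do not settle whether libraries shared a culture or day.

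Signs turned for DYNLL2 and DYNLRB1, as given above, and otherwise only for named genes near 0 that were not called. PAFAH1B1 was at -1.34e-05 with DESeq2's size factors, -0.0244 with upper-quartile scaling, -0.0017 with at least 10 counts in every library, -0.00043 with the replicate block, and ran from -0.0220 to 0.0293 with a library left out. BICD2 was at -0.0074 with upper-quartile scaling. With a library left out, NDE1 ran from -0.0144 to 0.0714, PPP1R9A from -0.0442 to 0.0055, PON3 from -0.0407 to 0.1653, PON2 from -0.0264 to 0.000221 and SEM1 from -0.0539 to 0.0044. The lost calls of single named genes are given with those genes, and the cause was not tested. Of 33 called genes named outside the complex, 20 stayed past the threshold in every alternative. The low count of DYNLRB1 limits what can be said of the roadblock chain.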

Other observations

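The other light chain genes of the dynein families, which are outside the set of 10, were scarce in these cells. DYNLT2 averaged 3.11 ± 0.0755 CPM in the DMSO libraries and 3.16 ± 0.365 CPM in the PARGi libraries (SD over 3 libraries each), and DYNLRB2, the second roadblock gene, at 0.174 ± 0.0741 and 0.137 ± 0.0328 CPM. DYNLT2B and DYNLT4 were at most 0.355 CPM in the mean of either group, and DYNLT5 was at 0 in every library. Of the 4 that could be tested, edgeR called 0, beside 24.3% of all tested genes, and 0 had an unadjusted edgeR p under 0.05. DESeq2 gave an adjusted p for DYNLT2 alone, which it did not call.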
